A study of Mus musculus with 42 samples.

Results

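The BMP, GDF5 and myostatin pathway was followed through 10 genes, Gdf5, Mstn, Fst, Acvr2b, Bmpr1a, Smad1, Smad3, Smad7, Id1 and Id3, chosen by name. All 10 were found among the 13809 genes of the deposited table. RNAseq was performed on the tibialis anterior (TA), a fast muscle of the lower hindlimb, of male C57BL/6J mice aged 4 months, giving 42 libraries in 2 sets. Set 1 holds wild type (WT) mice, Sesn1SkM-Tg mice, which carry human Sesn1 under the MCK promoter of skeletal muscle, and Sesn2SkM-Tg mice, in which an MCK-tTA construct drives a Tet-regulated Sesn2. Set 2 holds WT mice and Sesn1-/- mice (Sesn1 KO), a line that lacks Sesn1. Each of these was sampled in the basal state and after 3 days of immobilization of the right hindlimb, and set 2 also holds WT muscles 3 days after denervation, in which a segment of the sciatic nerve was removed. There were 4 libraries in each of the 11 groups, except for 3 in the immobilized WT group of set 1 and 3 in the immobilized Sesn1SkM-Tg group. The authors describe non-transgenic littermates as WT controls of the transgenic lines. The labels do not say of which line the WT mice of set 1 were littermates.

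Growth factors of the TGF-beta family signal through complexes of type II and type I receptors, which phosphorylate Smad proteins that move to the nucleus with Smad4. In muscle the pathway has opposing branches. Myostatin (Mstn), made by muscle fibres, binds Acvr2b and acts through Smad2 and Smad3 to restrain growth, whereas BMP ligands such as Gdf5 act through Bmpr1a and Smad1, Smad5 and Smad9 to favour mass, and Gdf5 is known to be induced when a muscle loses its nerve. Follistatin (Fst) binds and neutralizes myostatin and activins, Smad7 is an inhibitory Smad, and Id1 and Id3 are classical targets of BMP signals.

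The values of a library, normalized counts close to CPM, summed to between 722430 and 1276769, and the number of reads behind them is unknown. The sums of the 4 denervated libraries, 722430 to 811541, lay below those of the basal WT libraries of set 2, 1042064 to 1099736. Libraries correlated with the mean of the others of their group at 0.968 to 0.994, and those at the lower end were basal WT replicate 4 of set 1 (0.968) and basal Sesn2SkM-Tg replicate 2 (0.969). Sesn1 was 41.6 to 77.6 in basal Sesn1SkM-Tg muscle against 14.98 to 22.1 in basal WT muscle, and Sesn2 was 6.54 to 13.0 in basal Sesn2SkM-Tg muscle against 2.18 to 3.39. In the basal state Sesn1 was 8.41 to 10.05 in libraries labelled Sesn1 KO against 22.5 to 29.7 in WT. After immobilization the libraries labelled Sesn1 KO were at 37.3, 27.7, 19.4 and 19.6, all above the basal ones with this label. Replicate 1, at 37.3, lay within the range of the immobilized WT libraries, 30.7 to 53.1. As a check of the tissue, the fast myosin Myh4 was at 42367 to 52315 in basal WT muscle of set 2 and the slow myosin Myh7 at 1.10 to 2.03.

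Promoter windows of the 250 bases before the start site were available from RefSeq (GRCm38.p6) for 6 of the 10 genes, namely Mstn, Acvr2b, Bmpr1a, Smad1, Smad3 and Id3, and not for Gdf5, Fst, Smad7 or Id1. RefSeq and GENCODE place some starts differently. By the GENCODE gene bounds, the windows of Id3 and Bmpr1a lie wholly, and those of Smad1 and Acvr2b partly, inside the gene. They were searched on both strands for the 4-letter SMAD element GTCT (AGAC on the other strand). It occurred 3 times in Mstn, 2 times in Acvr2b, 2 times in Id3, 1 time in Smad3, and 0 times in Bmpr1a and Smad1, while 82.9% of all 32851 promoter windows of this length hold it. The windows of Mstn, Acvr2b and Smad3, the ligand, receptor and Smad of the myostatin branch, are shown because all 3 genes differed between denervated and immobilized muscle. They lie at chr1:53061390-53061639 (plus strand), chr9:119401928-119402117 (plus strand, the 190 bases that lie before the annotated gene) and chr9:63757995-63758244 (minus strand). They are printed 5′ to 3′ on the strand of the gene with the SMAD element in capitals.
Mstn: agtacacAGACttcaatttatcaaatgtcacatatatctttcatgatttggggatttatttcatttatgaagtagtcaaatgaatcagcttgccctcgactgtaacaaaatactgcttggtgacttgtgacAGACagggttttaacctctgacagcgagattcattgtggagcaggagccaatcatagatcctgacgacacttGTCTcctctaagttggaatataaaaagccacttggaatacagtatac
Acvr2b: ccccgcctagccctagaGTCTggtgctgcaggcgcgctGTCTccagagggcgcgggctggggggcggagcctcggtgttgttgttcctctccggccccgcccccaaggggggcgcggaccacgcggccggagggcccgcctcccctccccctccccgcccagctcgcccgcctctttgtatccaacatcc
Smad3: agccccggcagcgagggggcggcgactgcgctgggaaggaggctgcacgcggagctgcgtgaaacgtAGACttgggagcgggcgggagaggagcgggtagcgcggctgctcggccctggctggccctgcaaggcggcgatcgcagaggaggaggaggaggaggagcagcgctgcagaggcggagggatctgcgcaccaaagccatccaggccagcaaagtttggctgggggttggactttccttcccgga
Among these 6 windows, TATAAA was found only in Mstn, starting 29 bases before the start site (12.4% of all windows hold it, and the match shares no base with a SMAD element). The E-box CANNTG was found 4 times in Mstn, 1 of them sharing a base with a SMAD element, and in none of the other windows (66.2% of all windows), and GGCGCC was found 1 time in Bmpr1a only (9.59% of all windows). These are matches of letters, and binding was not measured.

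On chromosome 2 lie Gdf5 (GRCm38, 155941023 to 155945367, minus strand) and Id1 (152736251 to 152737410, plus strand), and on chromosome 1 Mstn (53061640 to 53068079, plus strand). Acvr2b (119402118 to 119434995, plus strand) and Smad3 (63646767 to 63757994, minus strand) are on chromosome 9. Fst is on chromosome 13, Bmpr1a on 14, Smad1 on 8 and Id3 on 4. Divided by exon length, the level in basal WT muscle of set 2 was highest for Smad3 (21.8 ± 4.08 per kb, SD, n = 4), followed by Mstn (18.0 ± 4.53) and Bmpr1a (12.6 ± 2.02). Next on this scale were Id3 (8.47 ± 1.502) and Id1 (6.72 ± 3.09), which overlapped, then Smad7 (1.73 ± 0.405), Smad1 (1.39 ± 0.207) and Acvr2b (0.869 ± 0.126). Fst (0.274 ± 0.0988) and Gdf5 (0.0583 ± 0.0357) were the lowest. Neighbours from Smad3 to Mstn, from Id3 to Id1 and from Smad7 to Smad1 differed by less than the larger of their SDs. In basal WT muscle of set 1, Bmpr1a (15.6 ± 5.26) came before Mstn (13.2 ± 4.75), also within their spread, and Smad3 (20.3 ± 2.36) and Gdf5 (0.156 ± 0.140) again held the ends of the order.

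**Figure D1:**
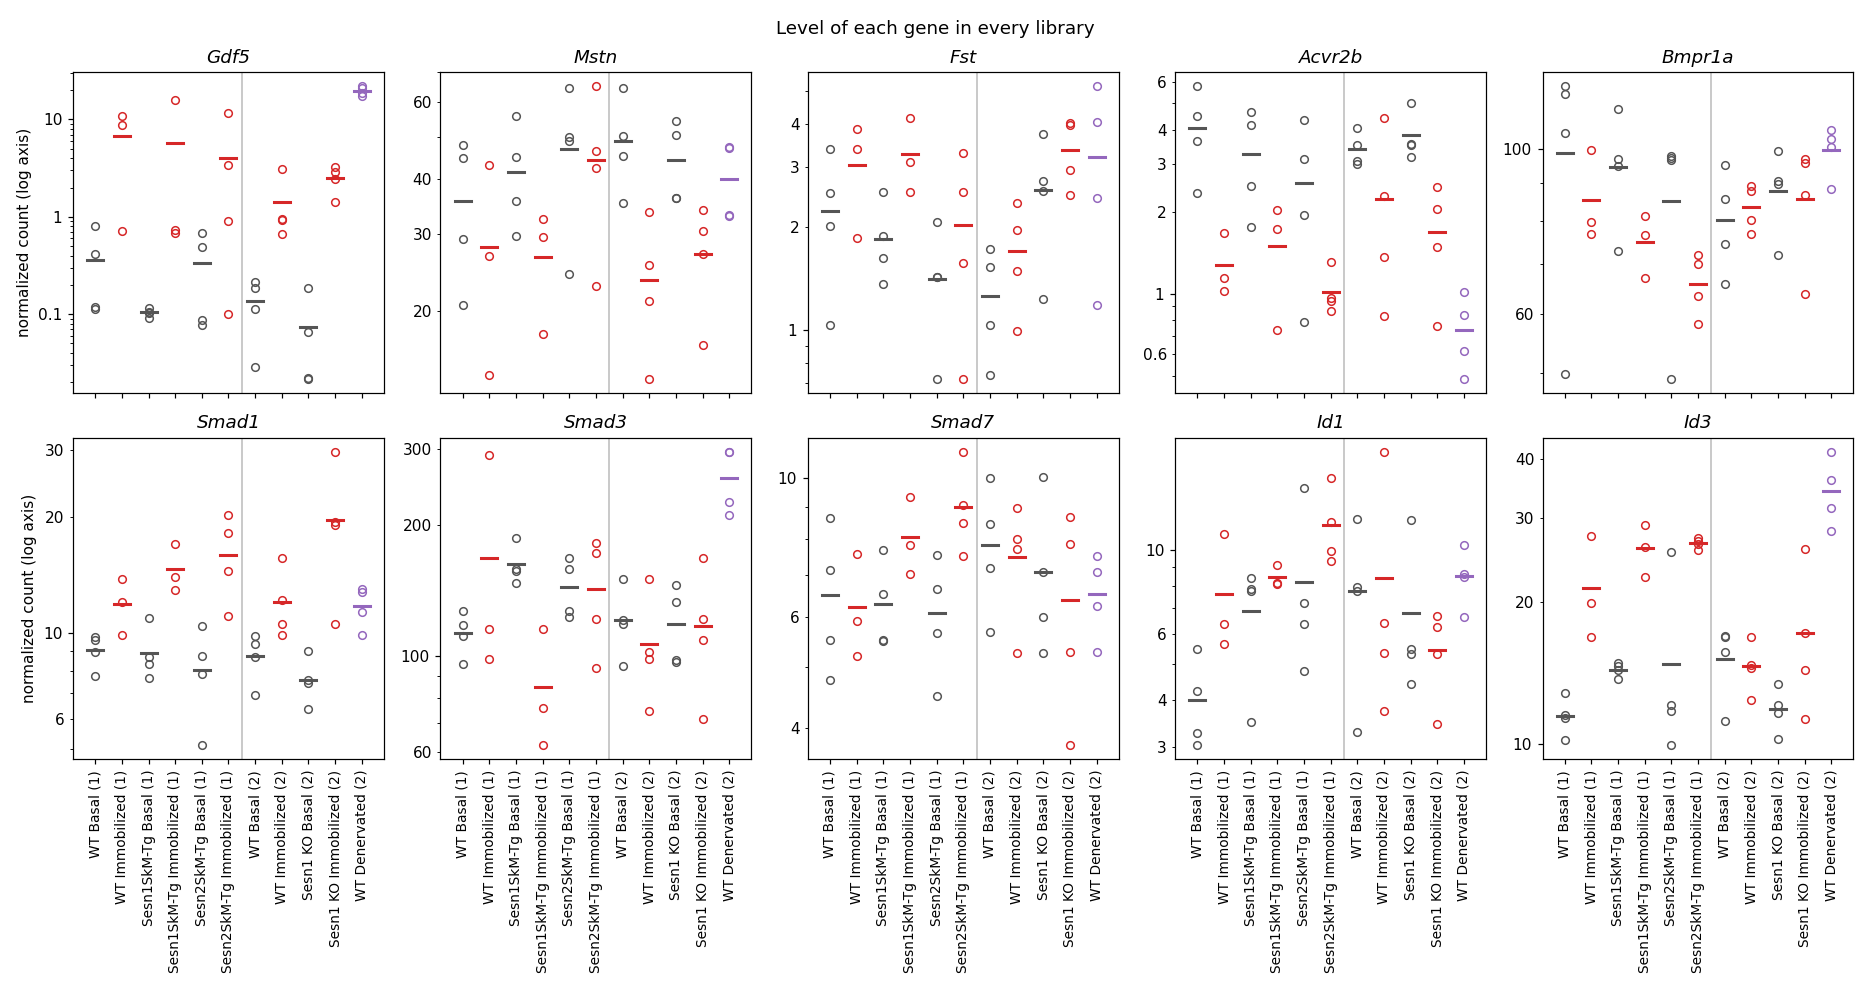
Normalized count (log axis) of each of the 10 genes in every library. Points are libraries, bars are group means, grey is basal, red immobilized and purple denervated muscle, and (1) and (2) give the set. Gdf5 lay between 17.3 and 21.8 in the 4 denervated libraries and did not exceed 0.213 in any basal library of the same set. In set 1 no basal library exceeded 0.799.

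Differences were tested with limma on log2(value + 1) over all genes of a set, with Benjamini-Hochberg adjustment, and a gene was called, and is said to have risen or fallen, at an adjusted p under 0.05 and a log2 difference of at least 0.25. After denervation 6 of the 10 genes were called against basal muscle, 5 higher (27.8% of all 13629 genes tested were called higher) and 1 lower (27.7%). Against immobilized WT muscle of the same set, denervated muscle had 4 genes higher (20.5% of all genes) and 1 lower (18.4%). Immobilization of WT muscle gave 2 higher and 1 lower in set 1 (14.9% and 14.5% of 13705 genes) and 1 higher and 1 lower in set 2 (16.2% and 17.7%). In Sesn1SkM-Tg muscle 2 genes were higher and 1 lower (18.2% and 16.5%), in Sesn2SkM-Tg muscle 3 were higher and 0 lower (15.0% and 15.7%), and in Sesn1 KO muscle 2 were higher and 2 lower (17.2% and 19.9%). After immobilization these counts of 10 genes lay near the shares of all genes. The median log2 difference of the 10 genes was 0.36 after denervation beside -0.03 over all genes, and in immobilization it ranged from -0.05 in Sesn1 KO muscle to 0.39 in Sesn2SkM-Tg muscle, beside medians of -0.03 to 0.00 over all genes. Denervated and immobilized WT muscles of set 2 share the basal libraries they were compared with.

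**Figure D2:**
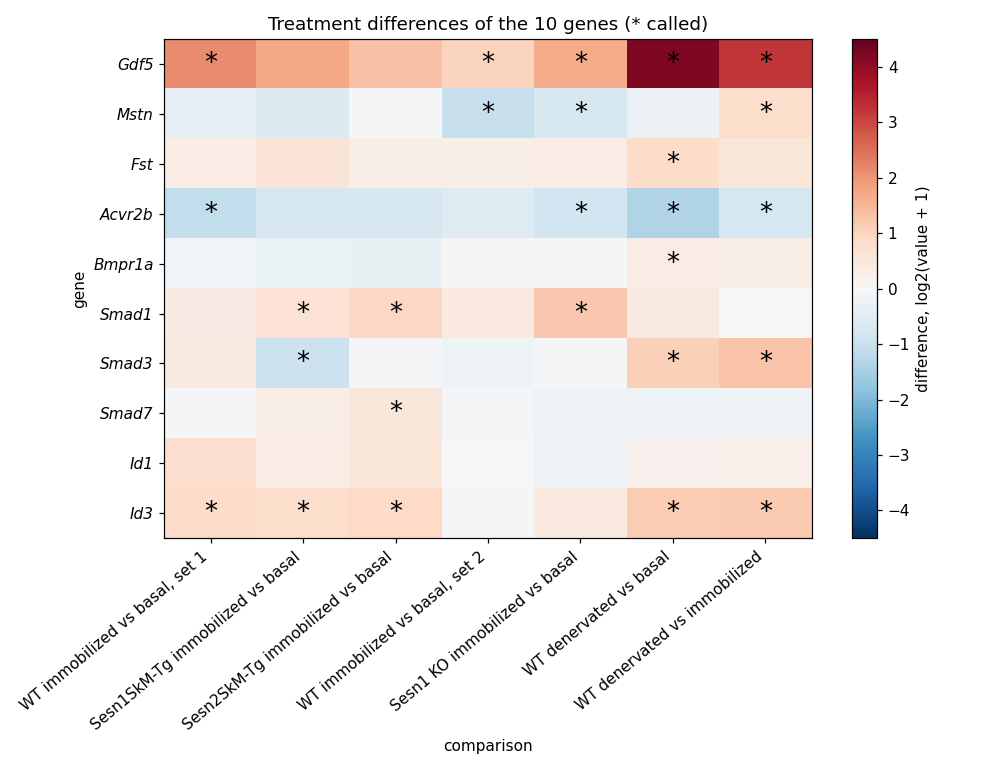
Difference of each gene, on the log2(value + 1) scale, in the 7 comparisons of treated with basal, or denervated with immobilized, muscle. Red is higher and blue lower in the group named first, and an asterisk marks a call. The largest difference is that of Gdf5 after denervation (4.19).

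Among the ligands, Gdf5 was near the floor of the table in basal muscle and rose with disuse. In basal WT muscle of set 2 its normalized counts were 0.213, 0.114, 0.186 and 0.0284, and in denervated muscle they were 21.3, 21.8, 17.3 and 18.8. All denervated libraries thus lay above all the other libraries of set 2, the nearest being 1 immobilized Sesn1 KO library at 3.23. The difference was 4.19 ± 0.22 (SE) on the log2(value + 1) scale (adjusted p = 4e-12), a scale that compresses differences at values this low. With a pseudocount of 0.1 it was 6.48 and with none 7.53, and these sizes rest on basal values near the floor. After immobilization the 4 WT libraries of set 2 were at 0.666, 0.957, 3.12 and 0.917, all above their basal group (0.99 ± 0.22, adjusted p = 0.0016), and denervated exceeded immobilized muscle by 3.20 ± 0.22 (adjusted p = 7e-10). In Sesn1 KO muscle Gdf5 rose from 0.0217 to 0.185 in the basal libraries to 2.90, 2.46, 1.41 and 3.23 (1.68 ± 0.22, adjusted p = 5.1e-06).

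In set 1 the Gdf5 levels of immobilized libraries split within a group. The WT libraries were at 8.72, 0.718 and 10.97 against 0.112, 0.119, 0.416 and 0.799 in the basal state. The second immobilized library lay inside the basal range. The rise, 2.13 ± 0.74 (adjusted p = 0.034), was not called without basal replicate 1 (adjusted p = 0.067), 2 (0.070) or 3 (0.055), without immobilized replicate 1 (0.12) or 3 (0.19), or with quantile normalization (0.052). The immobilized Sesn1SkM-Tg libraries were at 0.677, 0.726 and 15.9, all above their basal libraries at 0.0915 to 0.117, and the difference of 1.73 ± 0.74 was not called (adjusted p = 0.075). It was called with a pseudocount of 0.1 (3.41, adjusted p = 0.026) or 0 (4.26, adjusted p = 0.019) in place of 1, and without immobilized replicate 1 (2.29, adjusted p = 0.034) or 2 (2.27, adjusted p = 0.047). In immobilized Sesn2SkM-Tg muscle the levels were 3.42, 0.907, 0.101 and 11.5 against 0.0878, 0.674, 0.0772 and 0.495, with 1 library within the basal range (1.33 ± 0.69, adjusted p = 0.15).

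Myostatin, the negative regulator of muscle mass, fell with immobilization in set 2 but was not called after denervation. Its normalized counts were 50.2, 35.2, 45.1 and 64.6 in basal WT muscle, 25.5, 21.03, 14.01 and 33.7 in immobilized muscle and 32.9, 33.1, 47.0 and 47.3 in denervated muscle. Basal and immobilized libraries did not overlap, whereas the denervated ones overlapped the basal range. The fall with immobilization was -1.05 ± 0.24 (adjusted p = 0.0018), the difference after denervation was -0.27 ± 0.24 (adjusted p = 0.36), and denervated exceeded immobilized muscle by 0.79 ± 0.24 (adjusted p = 0.012, but 0.060 without immobilized WT replicate 3). In Sesn1 KO muscle Mstn was 50.4, 54.2, 36.2 and 36.2 in basal libraries and 33.9, 27.0, 30.4 and 16.8 in immobilized ones. These groups did not overlap either (-0.71 ± 0.24, adjusted p = 0.023), though the call was lost without basal replicate 1 (adjusted p = 0.064) or 2 (0.078) or immobilized replicate 4 (0.099). In set 1 basal and immobilized libraries overlapped in all genotypes and Mstn was not called (adjusted p = 0.47 in WT, 0.21 in Sesn1SkM-Tg and 0.86 in Sesn2SkM-Tg muscle). In the Sesn1SkM-Tg line the mean was 41.5 ± 11.3 (SD, n = 4) in basal libraries and 26.5 ± 7.81 (n = 3) in immobilized ones.

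Follistatin, the antagonist, was low and variable. It was 1.03, 1.53, 1.73 and 0.740 in basal WT muscle of set 2 and 4.05, 1.18, 2.43 and 5.15 after denervation, where 1 library stayed inside the basal range. The rise was 0.81 ± 0.28 (adjusted p = 0.017), and it was not called without basal replicate 4 (adjusted p = 0.056) or denervated replicate 1 (0.059) or 4 (0.081). In the 5 immobilization comparisons Fst was called in 0, with differences from 0.25 ± 0.28 in WT muscle of set 2 to 0.58 ± 0.29 in Sesn1SkM-Tg muscle.

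Of the receptors, Acvr2b, the type II receptor bound by myostatin and activins, moved the other way from Gdf5. In basal WT muscle of set 2 it was at 2.99, 3.06, 4.06 and 3.53 and in denervated muscle at 0.836, 0.614, 1.01 and 0.487, with no overlap (-1.35 ± 0.26, adjusted p = 0.00014). In immobilized WT muscle of that set its levels were 0.832, 1.37, 2.28 and 4.43, with 1 library above the basal range (-0.57 ± 0.26, adjusted p = 0.095), and without that library, replicate 4, the fall was called (-0.86, adjusted p = 0.0058). Denervated muscle was below immobilized muscle (-0.78 ± 0.26, adjusted p = 0.020), a call that was lost without immobilized replicate 4 (adjusted p = 0.096) or denervated replicate 4 (0.055) and when fitted without the other groups (0.051). In Sesn1 KO muscle it fell from 3.19, 3.54, 5.01 and 3.53 to 0.762, 2.04, 1.49 and 2.48 (-0.87 ± 0.26, adjusted p = 0.011). In WT muscle of set 1 it fell from 2.36, 5.77, 4.51 and 3.65 to 1.15, 1.02 and 1.67 (-1.12 ± 0.32, adjusted p = 0.011).

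In the transgenic lines the Acvr2b difference after immobilization was negative and not called, though with quantile normalization it was called in both (-0.99, adjusted p = 0.022, in Sesn1SkM-Tg and -0.78, adjusted p = 0.049, in Sesn2SkM-Tg muscle). The difference was -0.75 ± 0.32 in Sesn1SkM-Tg muscle (adjusted p = 0.069, and 0.033 without basal replicate 3). In Sesn2SkM-Tg muscle it was -0.71 ± 0.29 (adjusted p = 0.070), where 3 basal libraries lay at 1.95 to 4.37 and replicate 2, the library that stood apart, at 0.791. Without that library the fall was called (adjusted p = 0.0081). Acvr2b thus was called lower in 2 of 5 immobilization comparisons, with negative differences in the others.

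Bmpr1a, a type I receptor for BMP ligands and the third most abundant of the 10 genes per kb in set 2, varied little. It was at 85.6, 74.5, 65.8 and 95.2 in basal and 88.5, 103, 101 and 106 in denervated WT muscle, with overlap (0.32 ± 0.13, adjusted p = 0.041). This call was lost in 5 of 8 fits that left out a library, namely without basal replicate 2 (adjusted p = 0.097) or 3 (0.16) or denervated replicate 2 (0.085), 3 (0.074) or 4 (0.096), and in a fit with no trend (0.060). Immobilization gave no call in any of the 5 comparisons. Both libraries that stood apart had the lowest Bmpr1a of their groups, 49.8 in basal WT replicate 4 of set 1 beside 105 to 121 in the others, and 49.1 in basal Sesn2SkM-Tg replicate 2 beside 96.8 to 98.05.

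Smad1, which carries the BMP signal, rose with immobilization in 3 of the 5 comparisons. It went from 7.41, 6.35, 7.56 and 8.99 to 29.5, 19.5, 19.2 and 10.5 in Sesn1 KO muscle (1.196 ± 0.21, adjusted p = 0.00011). In Sesn2SkM-Tg muscle it went from 7.84, 5.14, 8.73 and 10.4 to 11.1, 20.3, 18.2 and 14.5 (0.92 ± 0.19, adjusted p = 0.00096), and in Sesn1SkM-Tg muscle from 8.67, 8.33, 7.66 and 10.98 to 14.03, 12.9 and 17.1. In each of these 3 lines no immobilized library overlapped the basal range. The Sesn1SkM-Tg rise, 0.66 ± 0.20 (adjusted p = 0.016), was not called without immobilized replicate 3 (0.56, adjusted p = 0.093). In WT muscle the differences were 0.36 ± 0.20 (adjusted p = 0.19) in set 1 and 0.42 ± 0.21 (adjusted p = 0.12) in set 2, with immobilized libraries at 9.90 to 13.9 and 9.90 to 15.7 above basal ones at 7.74 to 9.78 and 6.90 to 9.86. After denervation Smad1 was at 9.90 to 13.0 (0.40 ± 0.21, adjusted p = 0.11, but 0.020 when fitted without the other groups).

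Smad3, the mediator of myostatin and TGF-beta signals, rose with denervation and was not called after immobilization of WT muscle. Its normalized counts were 118, 121, 94.7 and 150.0 in basal, 102, 98.6, 74.6 and 151 in immobilized and 212, 227, 294 and 295 in denervated WT muscle of set 2. The denervated libraries lay above all the others of the set (1.08 ± 0.22 over basal, adjusted p = 3e-04, and 1.29 ± 0.22 over immobilized muscle, adjusted p = 9.5e-05). In Sesn1SkM-Tg muscle Smad3 fell with immobilization, from 157, 159, 187 and 147 to 75.9, 115 and 62.5 (-0.97 ± 0.28, adjusted p = 0.011). This call was lost without immobilized replicate 3 (-0.78, adjusted p = 0.083). In immobilized WT muscle of set 1 the libraries were at 291, 115 and 98.5, so that a single library stood well above the others, and basal ones were at 95.5 to 127 (adjusted p = 0.29).

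Smad7, the inhibitory Smad, was called only in Sesn2SkM-Tg muscle, where it went from 4.49, 5.66, 7.53 and 6.67 to 9.06, 10.999, 8.47 and 7.51. The ranges touch, since the lowest immobilized library was just below the highest basal one (0.51 ± 0.18, adjusted p = 0.036). The call was lost without basal replicate 1 (adjusted p = 0.13) or 2 (0.063) and without immobilized replicate 1 (0.065), 2 (0.13) or 3 (0.051). It was also lost with quantile normalization (0.074), when fitted without the other groups (0.053) and with a replicate block (0.051). Elsewhere Smad7 lay between 3.76 and 10.03, with adjusted p from 0.22 to 0.89 in the other comparisons with basal muscle.

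Of the targets, Id3 rose while Id1 was not called in any of the 7 comparisons. Id3 was at 15.7, 16.9, 16.9 and 11.2 in basal WT muscle of set 2 and at 41.3, 31.4, 28.2 and 36.1 after denervation, without overlap (1.13 ± 0.18, adjusted p = 2.3e-05). Immobilized WT muscle of that set stayed at 14.7, 14.5, 16.8 and 12.4, within the basal range (adjusted p = 0.89), and denervated exceeded it by 1.17 ± 0.18 (adjusted p = 3.5e-05). In set 1, in contrast, immobilized WT muscle was at 16.8, 27.5 and 19.9 against 10.2, 11.3, 11.5 and 12.8 in the basal state (0.82 ± 0.21, adjusted p = 0.0063, and 0.05 without immobilized replicate 2).

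Both transgenic lines also showed a rise of Id3 in set 1. In Sesn1SkM-Tg muscle it went from 13.7, 14.4, 14.6 and 14.9 to 26.1, 22.6 and 29.1 (0.80 ± 0.21, adjusted p = 0.0058). In Sesn2SkM-Tg muscle it went from 9.99, 25.4, 11.7 and 12.1 to 26.9, 26.4, 27.2 and 25.7 (0.89 ± 0.19, adjusted p = 0.0015), all immobilized libraries lying above even the basal library that stood apart at 25.4. In Sesn1 KO muscle the immobilized libraries were at 25.9, 11.3, 17.2 and 14.4 and overlapped the basal ones at 10.3 to 13.4 (0.45 ± 0.18, adjusted p = 0.062), and the rise was called without immobilized replicate 2 (0.61, adjusted p = 0.011), with quantile normalization (adjusted p = 0.049) and with median centring (0.037).

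Id1 varied widely among replicates of set 2. In basal WT muscle of set 2 it was at 7.97, 7.79, 12.1 and 3.31, in immobilized muscle at 3.74, 5.34, 18.1 and 6.40 and in denervated muscle at 10.3, 6.63, 8.45 and 8.60, and these ranges overlapped. In WT muscle of set 1 it was 3.28, 3.05, 5.47 and 4.22 in basal libraries, and 6.36, 10.99 and 5.63 in immobilized ones, so that these groups did not overlap (0.76 ± 0.30, adjusted p = 0.057), and the difference was called without basal replicate 3 (0.90, adjusted p = 0.042). In Sesn2SkM-Tg muscle it was 0.53 ± 0.28 (adjusted p = 0.15), and 0.82 without basal replicate 2 (adjusted p = 0.018), whose Id1 of 14.5 stood beside 4.79 to 7.22 in the others.

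Id1 and Id3 are also expressed in endothelial cells, and in bulk muscle fewer cells of a type and less RNA per cell cannot be told apart. The summed level of 8 endothelial markers, all 8 measured, was 222 to 309 in basal and 312 to 363 in immobilized WT muscle of set 1, and it was higher after immobilization in both transgenic lines (224 to 319 and 360.4 to 379 in Sesn1SkM-Tg, 214 to 252 and 385 to 503 in Sesn2SkM-Tg muscle). In set 2 it was 356 to 452 in basal, 216 to 328 in immobilized and 183 to 229 in denervated WT muscle, and 325 to 431 and 240.5 to 318 in basal and immobilized Sesn1 KO muscle. The markers and Id3 moved in the same direction in set 1. In immobilized WT muscle of set 2 the markers were lower and Id3 stayed within the basal range. After denervation Id3 was higher and the markers lower. The part of endothelial cells in the Id1 and Id3 values of either set was not tested.

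**Figure D3:**
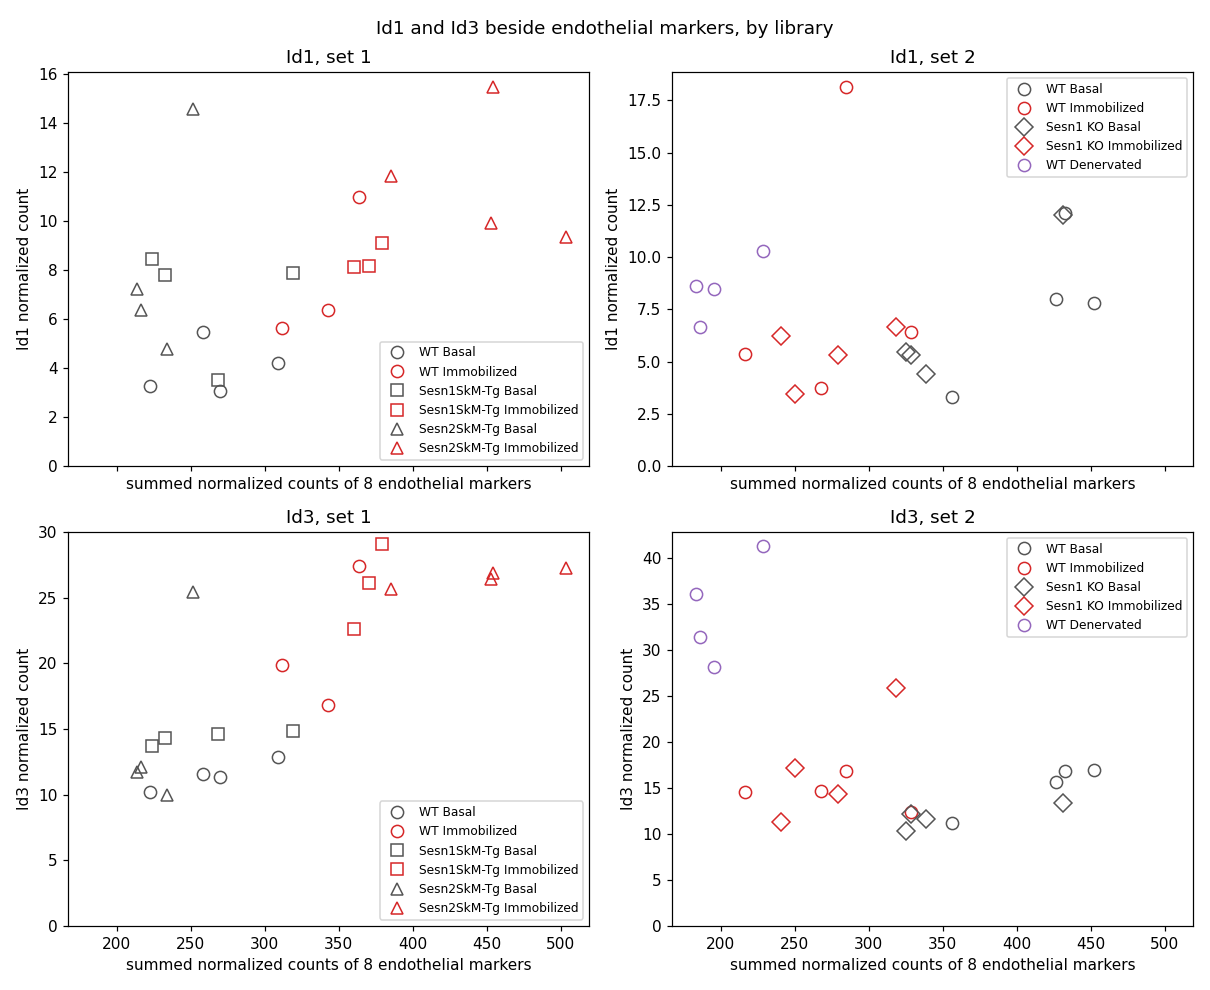
Normalized count of Id1 (top) and Id3 (bottom) against the summed normalized counts of 8 endothelial markers, by library, for set 1 (left) and set 2 (right). Symbols give the genotype and colours the treatment (grey basal, red immobilized, purple denervated). The 4 denervated libraries have Id3 at 28.2 to 41.3 with marker sums of 183 to 229, and the basal WT libraries have Id3 at 11.2 to 16.9 with sums of 356 to 452.

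Markers of other cell types moved as well. The sum of 7 macrophage and leukocyte markers (of 8 listed) had a median of 38.9 in basal and 199 in immobilized WT muscle of set 1, of 61.8 and 139 in set 2, and of 78.1 after denervation. The medians in the other lines were 44.8 and 399.8 for Sesn1SkM-Tg, 51.4 and 138 for Sesn2SkM-Tg and 62.8 and 137 for Sesn1 KO muscle. The sum of 5 mural cell markers was 179 to 317 in basal and 418 to 499 in immobilized WT muscle of set 1, and 370.3 to 606 in basal, 213 to 383 in immobilized and 201 to 260.3 in denervated WT muscle of set 2. The 6 Schwann cell markers followed the same pattern (9.83 to 19.9 and 25.2 to 55.0 in set 1, and 21.2 to 42.5, 15.9 to 26.7 and 12.3 to 16.0 in set 2).

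The sum of 9 fibre genes was 125253 to 138800 in basal, 113396 to 122535 in immobilized and 51482 to 66986 in denervated WT muscle of set 2. In set 1 it was 114211 to 141761 in basal and 74152 to 90872 in immobilized WT muscle, 120129 to 124236 and 72082 to 103262 in Sesn1SkM-Tg muscle, and 132931 to 152931 and 71457 to 98480 in Sesn2SkM-Tg muscle. The sum in Sesn1 KO muscle was 115354 to 137802 and 92591 to 132867. The 5 fibroblast markers summed to 253 to 437 in basal, 253 to 1126 in immobilized and 208 to 349 in denervated WT muscle of set 2, and to 255 to 649 and 440 to 1079 in basal and immobilized WT muscle of set 1. The 2 measured satellite cell markers (of 3) stayed between 2.01 and 4.55 in WT muscle of set 2 and the 4 tendon markers between 5.65 and 71.2. The part of these cells in the levels of Gdf5, Acvr2b, Smad1, Smad3 and Id3 was not tested.

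The other genes of the pathway were read from 7 lists by role, given here with the calls among the members tested and, as background, the shares of all genes stated above. After denervation the receptors and co-receptors showed 3 higher and 7 lower of 14 (median -0.36). Tgfbr1, the type I receptor of TGF-beta, was at 109 to 116 in denervated and 25.3 to 30.3 in basal WT muscle (2.03 ± 0.10, adjusted p = 1.8e-12), and the co-receptor Tgfbr3 was also higher (0.98 ± 0.16). The BMP co-receptor Rgma (-1.42 ± 0.16) and the BMP type I receptor Acvr1 (-1.16 ± 0.12) were lower. Of 6 BMP target genes, 3 were higher and 2 lower (median 0.47). The list does not separate genes raised by BMP signals from genes lowered by them. Atoh8, a BMP-responsive transcription factor, went from 3.49 to 5.06 up to 24.6 to 36.2 (2.52 ± 0.21, adjusted p = 2.6e-09), and Id2, a relative of Id1 and Id3, from 1.204 to 3.69 up to 11.3 to 15.3 (2.05 ± 0.21, adjusted p = 6.8e-08). Msx1 was lower (-0.57 ± 0.18).

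Among 12 intracellular Smads and regulators, 3 were higher and 5 lower after denervation (median -0.05). The corepressors Tgif1 (2.47 ± 0.25, adjusted p = 5.2e-08) and Skil (0.71 ± 0.13) were higher, and the inhibitory Smad6 (-0.89 ± 0.22) and Zfyve9 (-0.84 ± 0.13), which presents Smads to the TGF-beta receptor, were lower. Of 14 antagonists and modulators, 5 were higher and 4 lower (median -0.32). The BMP antagonists Nbl1 (1.19 ± 0.21) and Chrd (0.96 ± 0.24) were higher, while the matrix proteoglycan Dcn (-1.01 ± 0.20) was lower. Of the 6 BMP and GDF ligands 0 were higher and 2 lower, among them Bmp6 (-0.73 ± 0.20). In the list of activins, Gdf11 and TGF-beta ligands, Tgfb3 (1.00 ± 0.16) and Tgfb2 (0.79 ± 0.15) were higher and the inhibin subunits Inhbb (-0.91 ± 0.25) and Inha (-0.77 ± 0.16) lower. Of the 6 TGF-beta and activin target genes 2 were higher, Pmepa1 (2.07 ± 0.16, adjusted p = 1.1e-09) and Thbs1 (3.02 ± 0.53, adjusted p = 5.4e-05), and 0 lower.

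**Figure D4:**
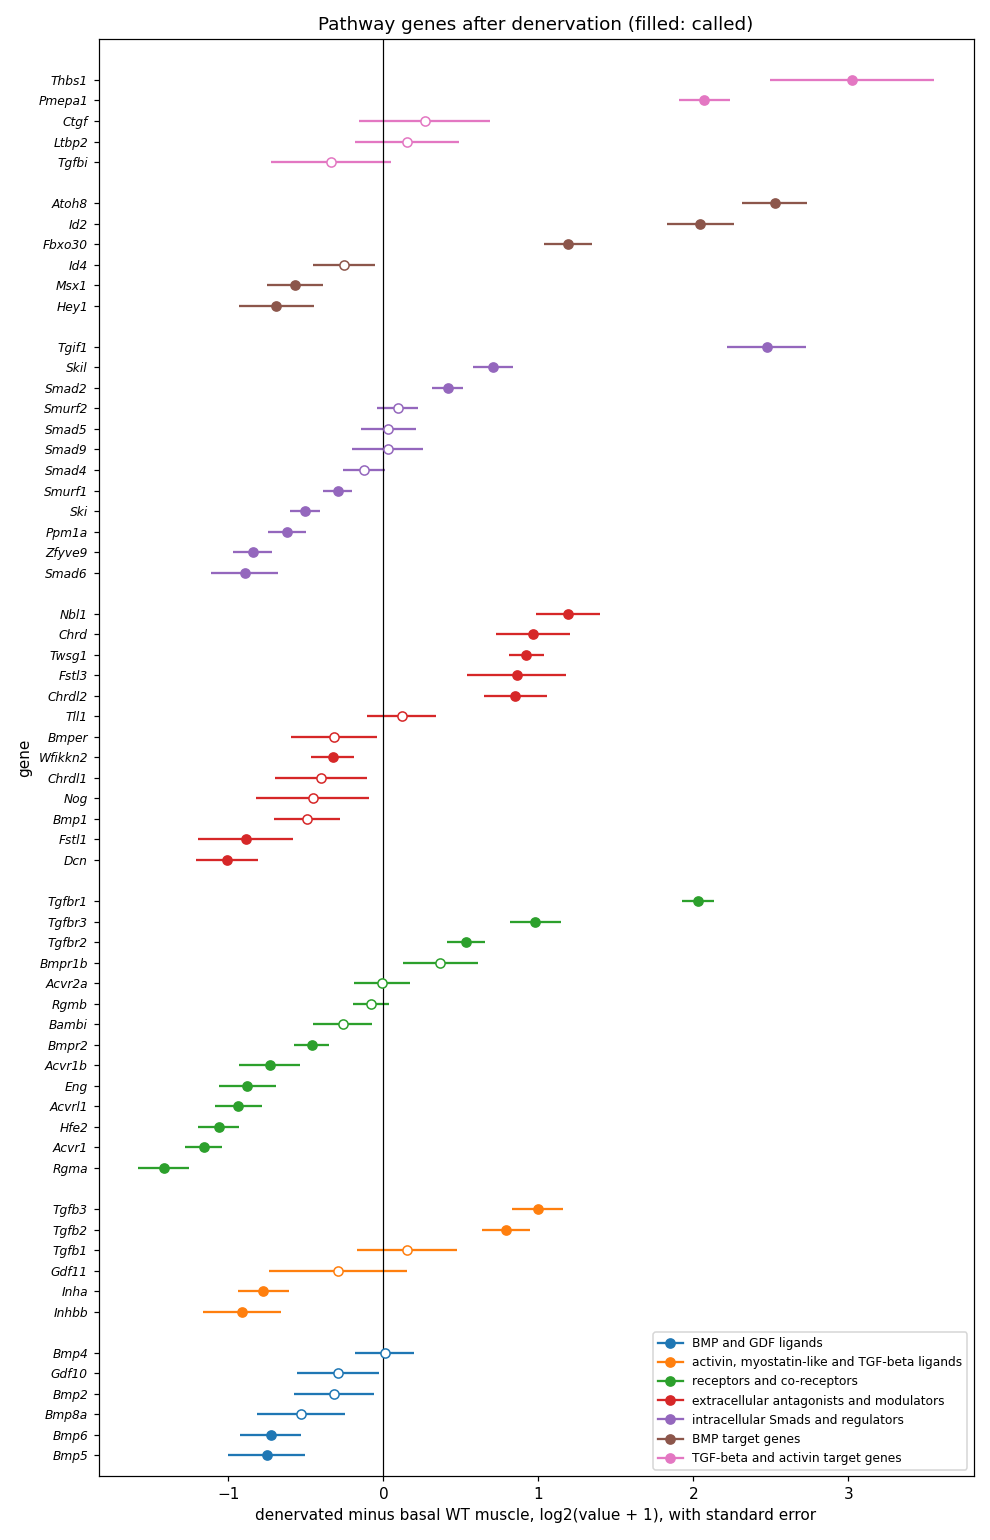
Denervated minus basal WT muscle of set 2 for the tested genes of the 7 pathway lists that are reported here, on the log2(value + 1) scale with the standard error. Filled points are called, open points are not, and colours give the list. Thbs1 (3.02), Atoh8 (2.52) and Tgif1 (2.47) lie farthest to the right and Rgma (-1.42) farthest to the left.

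Denervated also differed from immobilized WT muscle in these lists. Id2 (2.18 ± 0.21, adjusted p = 9.1e-08), Tgfbr1 (1.76 ± 0.10, adjusted p = 6.7e-11), Tgif1 (1.53 ± 0.25), Atoh8 (1.44 ± 0.21), Pmepa1 (1.34 ± 0.16), Nbl1 (1.28 ± 0.21), Chrdl2 (1.08 ± 0.20) and Skil (1.07 ± 0.13) were higher. Lower were the secreted Fstl1 (-1.44 ± 0.31), Bmp5 (-0.99 ± 0.25), Dcn (-0.87 ± 0.20), the activin receptor Acvr1b (-0.87 ± 0.20), Acvr1 (-0.79 ± 0.12), Smad6 (-0.73 ± 0.22) and Zfyve9 (-0.68 ± 0.13). In counts, 3 receptors were higher and 4 lower, 5 antagonists higher and 2 lower, 3 intracellular regulators higher and 4 lower, and 3 BMP targets higher and 0 lower. Of the 6 TGF-beta and activin targets 2 were higher, 0 were lower, and the median was -0.67, so that the median and the calls differ in sign.

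After immobilization 2 genes of the lists moved the same way in all 5 comparisons. Atoh8 rose by 1.95 ± 0.28 in WT muscle of set 1, 1.33 ± 0.28 in Sesn1SkM-Tg, 1.93 ± 0.26 in Sesn2SkM-Tg, 1.09 ± 0.21 in WT muscle of set 2 and 1.81 ± 0.21 in Sesn1 KO muscle. Rgma fell, with differences of -0.84 ± 0.16, -0.85 ± 0.16, -1.43 ± 0.15, -1.11 ± 0.16 and -1.61 ± 0.16 in the same order. Both were chosen for mention after their values were seen.

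Of the 6 TGF-beta and activin targets, immobilization gave 1 higher in WT muscle of set 1, 5 in Sesn1SkM-Tg, 3 in Sesn2SkM-Tg, 4 in WT muscle of set 2 and 3 in Sesn1 KO muscle, with 0 lower, and medians from 0.90 to 1.76. The macrophage and leukocyte marker sums given above moved with these genes, as did the fibroblast marker sum in Sesn1SkM-Tg muscle (217 to 323 in basal and 534 to 2087 in immobilized libraries), and their part was not tested. Of 14 antagonists and modulators, 8 were higher and 3 lower in Sesn1SkM-Tg muscle, 4 and 1 in WT muscle of set 1, 2 and 1 in Sesn2SkM-Tg, 1 and 3 in Sesn1 KO and 0 and 2 in WT muscle of set 2. Fstl1 rose by 1.59 ± 0.34 in WT and 1.69 ± 0.34 in Sesn1SkM-Tg muscle of set 1. The median fibroblast marker sum was 275 in basal and 806 in immobilized WT muscle of set 1, and 280.2 and 1112 in Sesn1SkM-Tg muscle. The part of fibroblasts in the antagonist genes was not tested.

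Of 14 receptors and co-receptors, immobilization gave 3 higher and 3 lower in WT muscle of set 1, 5 and 3 in Sesn1SkM-Tg, 4 and 3 in Sesn2SkM-Tg, 1 and 6 in WT muscle of set 2 and 3 and 5 in Sesn1 KO muscle. Hfe2, the muscle co-receptor hemojuvelin, fell by 0.76 ± 0.19 in Sesn1SkM-Tg, 0.86 ± 0.17 in Sesn2SkM-Tg and 0.88 ± 0.13 in Sesn1 KO muscle. It was also called lower in WT muscle of set 1 (-0.60 ± 0.19, adjusted p = 0.019). That call was lost with quantile normalization and without basal replicate 4 or immobilized replicate 3. In Sesn1 KO muscle Bmpr1b (1.00 ± 0.24) and Tgfbr1 (0.67 ± 0.10) rose. Tgfbr1 was also called higher in WT muscle of set 2, a call lost under 8 alternatives. Among the BMP ligands, Bmp4 rose in Sesn1SkM-Tg (0.79 ± 0.20) and Bmp6 in Sesn2SkM-Tg muscle (0.86 ± 0.23). Bmp4 was also called higher in Sesn2SkM-Tg muscle, a call lost without basal or immobilized replicate 4 and when fitted without the other groups. Gdf11, the close relative of myostatin, fell in Sesn1SkM-Tg muscle (-1.64 ± 0.39). It was also called lower in WT muscle of set 1 (-1.39 ± 0.39, adjusted p = 0.011, a call lost without immobilized replicate 2). In WT muscle of set 2 it was called lower too, but the call was lost in 6 fits that left out a library. No list gene was called for a difference between a line and WT mice in the immobilization effect. Tgfb2 rose in both lines of set 2 (0.89 ± 0.15 in WT and 0.85 ± 0.15 in Sesn1 KO muscle). Fbxo30, which encodes the ubiquitin ligase MUSA1 and is in the list of BMP target genes, rose there too (0.66 ± 0.16 and 0.91 ± 0.16). The corepressor Tgif1 rose in both lines of set 2 (0.94 ± 0.25 in WT and 1.09 ± 0.25 in Sesn1 KO muscle), by 1.83 ± 0.33 in Sesn2SkM-Tg muscle and by 1.37 ± 0.36 in WT muscle of set 1. The last call was lost without immobilized WT replicate 1 (adjusted p = 0.052).

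None of the 10 genes was called between genotypes with limma, which leaves 0 of 10 in each of the 6 comparisons of a line with WT muscle under equal treatment in its set. Over all genes 0.0292% were called for basal and 0.00730% for immobilized Sesn1SkM-Tg muscle, 2.50% and 2.94% for Sesn2SkM-Tg muscle, and 0.147% and 0.947% for Sesn1 KO muscle. Over all 13705 genes of set 1, an unadjusted p under 0.05 was found for 497 in basal and 417 in immobilized Sesn1SkM-Tg muscle. For Sesn2SkM-Tg muscle these numbers were 2136 and 2637, and for Sesn1 KO muscle 632 and 1917 of 13629. Of the 10 genes, 1 was at this level in each comparison except immobilized Sesn1 KO muscle, which had 3. These were Id1 in basal Sesn1SkM-Tg muscle (0.63, 95% interval 0.05 to 1.197, adjusted p = 1.00) and in basal Sesn2SkM-Tg muscle (0.80, 0.23 to 1.38, adjusted p = 0.13). In immobilized muscle they were Smad3 in Sesn1SkM-Tg (-0.86, -1.49 to -0.23, adjusted p = 1.00) and Smad7 in Sesn2SkM-Tg (0.47, 0.07 to 0.87, adjusted p = 0.19). These comparisons share the WT libraries of set 1.

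In Sesn1 KO muscle Fst differed from WT by 0.63 in the basal state (0.05 to 1.204, adjusted p = 1.00) and by 0.70 after immobilization (0.12 to 1.28, adjusted p = 0.25). After immobilization Smad1 differed by 0.60 (0.17 to 1.03, adjusted p = 0.18) and Gdf5 by 0.60 (0.14 to 1.07, adjusted p = 0.21). Smad1 was called without Sesn1 KO replicate 4 (0.85, adjusted p = 0.0097) and Gdf5 without WT replicate 3 (0.89, adjusted p = 0.019). That WT library had 3.12 of Gdf5 beside 0.666 to 0.957 in the other 3. Of the pathway lists, only Acvrl1, an endothelial receptor for BMP ligands (11.3 to 12.1 in WT and 17.1 to 20.4 in Sesn2SkM-Tg muscle after immobilization, 0.65 ± 0.16, adjusted p = 0.028), and Hey1 (1.66 to 3.98 and 4.86 to 10.2, 0.94 ± 0.25, adjusted p = 0.045) were called in a genotype comparison. Both calls were lost in most fits that left out a library, and with a replicate block. That of Hey1 was also lost with a pseudocount of 0.1 or 0, with median centring and when fitted without the other groups. That of Acvrl1 was lost without immobilized WT replicate 1 (adjusted p = 0.077), 2 (0.078) or 3 (0.084) or Sesn2SkM-Tg replicate 1 (0.068), 2 (0.059) or 3 (0.058). That of Hey1 was lost without WT replicate 1 (adjusted p = 0.060), 2 (0.062) or 3 (0.27) or Sesn2SkM-Tg replicate 1 (0.12) or 3 (0.11). The endothelial marker sum was 385 to 503 in these Sesn2SkM-Tg muscles and 312 to 363 in WT, and its part was not tested.

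Whether a line changed the response to immobilization was tested as the difference of the effects. With limma 0 of 10 genes were called for Sesn1SkM-Tg (0% of all genes), Sesn2SkM-Tg (0.00730%) and Sesn1 KO mice (0.0220%). At an unadjusted p under 0.05 there were 1, 0 and 2, beside 401 and 1008 of 13705 genes and 1087 of 13629 genes. For Sesn1SkM-Tg mice this was Smad3, whose effect was lower than that in WT mice by 1.38 on the log2 scale (difference -1.38, 95% interval -2.21 to -0.55, adjusted p = 1.00). For Sesn1 KO mice these were Smad1 (0.77, 0.16 to 1.39, adjusted p = 0.51) and Gdf5 (0.69, 0.03 to 1.34, adjusted p = 0.60). The calls of Smad1 in 3 lines and not in WT muscle are therefore not shown to differ from WT.

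The same treatment of WT mice was also compared between the sets. The difference in the immobilization effect was called for 0 of the 10 genes (6.20% of all 13763 genes). Beside 3087 of all genes tested, 1 of the 10 had an unadjusted p under 0.05 with limma. This was Id3, whose effect was larger in set 1 by 0.86 (95% interval 0.28 to 1.44, adjusted p = 0.064). It was called without immobilized WT replicate 1 of set 1 (1.01, adjusted p = 0.036) or basal WT replicate 4 of set 2 (0.99, adjusted p = 0.032). Of the pathway lists, Eng, the endothelial co-receptor endoglin, differed by 1.34 ± 0.28 (adjusted p = 0.0040), since it fell in set 2 (-0.66 ± 0.18) and rose in set 1 (0.68 ± 0.21, adjusted p = 0.018, but 0.060 without immobilized replicate 2 and 0.057 without replicate 3). Its marker list, the endothelial one, moved in opposite directions in these sets too, and its part was not tested. Acvrl1, Dcn and Smurf1 were also called, with a difference of -0.58 ± 0.16 for Smurf1, a ubiquitin ligase of Smads (adjusted p = 0.020, but 0.069 when fitted without the other groups). The calls of Acvrl1 and Dcn were lost under most of the alternatives.

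As a description, the genes with the most similar pattern to each member were found by Pearson correlation of log2(value + 1), centred on the mean of the set, over the 42 libraries and 13474 genes. The libraries share treatments and marker shifts, so no p is given. Gdf5 was most like Gadd45a (0.90) and Ampd3 (0.87), Acvr2b like Ank2 (0.86) and Enpp4 (0.86), and Bmpr1a like Sema3c (0.88) and Usp9x (0.88). Smad1 was most like Ptpn12 (0.86) and Rras2 (0.84), and Id3 like Impdh1 (0.86) and Lbh (0.84). The correlations were lower for Smad3 with Nol9 (0.76) and Ccdc134 (0.75), Mstn with Mum1l1 (0.71) and Larp4b (0.71), and Fst with Mis12 (0.71) and Rnd3 (0.68). The weakest were those of Id1 with Cox8a (0.65) and Plk3 (0.65) and of Smad7 with Sox17 (0.55) and Tead2 (0.55).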

How the data were processed

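RNA of TA muscles was sequenced from NEBNext Ultra libraries on an Illumina HiSeq instrument. The authors trimmed reads with Cutadapt 1.7.1, discarded reads under 30 bp, quantified them with RSEM 1.2.20 against GRCm38 and normalized them with limma. The values deposited by the authors are a signal, normalized counts on a linear scale that are never 0. How the sets were combined is not given in the sources used here. The values look adjusted per gene between sets, so comparisons were made within a set, except the difference of effects between sets. The labels say only that replicates are separate samples, so p-values measure the spread between these.

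The members and lists were chosen with earlier results of these data known. The fits used limma 3.58.1 under R 4.3.3. A gene entered the fit of a set if any library of that set reached a value of 1. The log2(value + 1) was fitted with 1 coefficient per group and eBayes with a trend, and two-sided p-values were adjusted over all genes tested. The fit was tested on simulated data. Named genes were all members, for each list and treatment comparison up to 2 called genes per direction ranked by size of change, list genes called between genotypes or effects, and the 2 genes most like each member. Of the list genes, those whose call depended on a setting or library were left out unless stated. A few list genes enter the counts and are not reported here by name. Positions and exon lengths come from GENCODE (GRCm38). Pseudocounts, filters, normalizations, the trend, the groups fitted, the replicate block, the fold threshold and each library left out were tried as alternatives.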

Additional observations from a re-analysis of the deposited data

Results flagged for a closer look

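In 5 of 90 groups of 4 libraries (10 genes in 9 groups), 1 library lay so far from the other 3 that its gap to the nearest exceeded 0.829 of the range of the group. In independent groups of values with normal spread this occurs in about 1 in 20. The 10 genes were read from the same libraries, so the groups are not independent, and the count was not tested against chance. Gdf5 was 3.12 in immobilized WT replicate 3 of set 2, above the other 3. In basal Sesn2SkM-Tg replicate 2, Bmpr1a was 49.1, below the other 3, and Id3 was 25.4, above them. Id1 was 3.49 in basal Sesn1SkM-Tg replicate 3, below the others, and 12.03 in basal Sesn1 KO replicate 3, above the others.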

How the results depend on the processing

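Of 170 differences of the 10 genes (17 comparisons), 55 were uncalled and changed sign under an alternative, and no fold change is given for these. The other 115, of which 26 were called, gave 2181 recomputed values, not counting the fold threshold of 1. Of these values 2125 kept their direction and their side of the threshold, 33 lost a call and 23 gained one. Counted by difference, 10 of the 26 called ones lost the call under at least 1 alternative, and 13 uncalled ones gained one. Requiring a log2 difference of at least 1 left 0 of the 10 genes called in Sesn1SkM-Tg, 0 in Sesn2SkM-Tg, 1 in WT (set 2) and 2 in Sesn1 KO muscle after immobilization. It left 3 between denervated and immobilized muscle. Over all genes it left 1299, 950, 686, 889 and 933 in the same order. When the fit held no groups but those compared, 1 of the 10, Id3, differed in its effect between sets (adjusted p = 0.049 with limma), beside 641 over all genes.

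Leaving out 1 library at a time gave 2 to 3 called genes for immobilized WT muscle of set 1, 1 to 4 for Sesn1SkM-Tg (1 without immobilized replicate 3), 2 to 4 for Sesn2SkM-Tg, 2 to 3 for WT of set 2 and 3 to 5 for Sesn1 KO muscle. The counts were 4 to 6 for denervation, 4 to 6 against immobilized muscle, 0 to 1 for immobilized Sesn1 KO against WT muscle and 0 to 1 for the sets, and 0 in the other comparisons.

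Counts over all genes moved more between genotypes. Basal Sesn2SkM-Tg muscle had 343 genes called, 156 to 1027 with a library left out and 93 to 350 under the other settings apart from the fold threshold. Immobilized Sesn2SkM-Tg muscle had 403, 112 to 316 and 229 to 412, and immobilized Sesn1 KO muscle 129, 40 to 608 and 14 to 143. Immobilized WT muscle of set 1 had 4018, with 2020 to 4026 and 2665 to 4018.

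In no comparison did the deviations of all same-numbered pairs correlate above 0.1. Single pairs between genotypes of set 1 went from -0.45 (basal Sesn2SkM-Tg and WT replicate 2) to 0.53 (basal Sesn1SkM-Tg and WT replicate 4). In Sesn1SkM-Tg (0.08 to 0.15) and Sesn2SkM-Tg muscle (0.02 to 0.13) after immobilization all pairs were positive. The labels do not say that a number marks a shared day, so the samples share only a number. With the replicate number as a block, the called genes of the 10 were 3, 4 and 2 for WT, Sesn1SkM-Tg and Sesn2SkM-Tg muscle of set 1. They were 2 and 4 for WT and Sesn1 KO muscle of set 2, 6 and 5 for the comparisons of denervated muscle, and 0 for the others. Over the settings apart from the fold threshold, the block among them, calls over all genes were 2665 to 4018, 4391 to 4767 and 3767 to 4236 in set 1. In set 2 they were 4415 to 4680 for WT and 4200 to 5109 for Sesn1 KO muscle. For denervated muscle they were 7365 to 7951 against basal and 5209 to 5349 against immobilized muscle. Under the block Gdf5 gained a call in Sesn1SkM-Tg muscle (1.94, adjusted p = 0.046) and Smad7 lost its call in Sesn2SkM-Tg muscle (adjusted p = 0.051). The number of reads is unknown, so counting error at low levels such as those of basal Gdf5 could not be set against the spread between libraries.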
